A study of Homo sapiens with 16 samples.

Results

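The mRNAs of 7 enzymes of glycolysis and of the lactate step behind it were followed through 8 lists of peaks from RNA immunoprecipitation followed by sequencing (RIP-seq). A peak is a stretch of the genome in which the authors' caller found enriched reads. Members were all peaks on a gene's own strand that overlapped its window on build hg19. The windows were ALDOA on chromosome 16 (30064411 to 30081778, plus strand), TPI1 on chromosome 12 (6976584 to 6980110, plus), GAPDH on chromosome 12 (6643585 to 6647537, plus), ENO1 on chromosome 1 (8921059 to 8939151, minus), PKM on chromosome 15 (72491370 to 72524164, minus), LDHA on chromosome 11 (18415936 to 18429765, plus) and LDHB on chromosome 12 (21788275 to 21910791, minus). They held 128 of the 175749 peaks of the 8 lists. Peaks that overlapped on the same strand in any of the lists were joined into a region, which gave 22 of the 36802 regions of the series. Of the 7 genes, 6 had at least 1 peak, and GAPDH had none in any list.

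The study used H1299, an established human lung carcinoma cell line, with a stably expressed Myc-tagged PABPC1, which binds the poly(A) tails of mRNAs in the cytoplasm. The protein was wild type (WT) or carried K512R, an arginine in place of a lysine. Cells got either no treatment or sodium arsenite (AS) at 500 µM, a stressor that stops most translation and induces stress granules. RNA was pulled down with an anti-Myc antibody (IP) or kept as input. All cells of the series carried the tagged protein, and no source used here says whether a line came from 1 clone. The 8 lists make up 4 pairs, called A to D, with replicates 1 and 2 in each. Sample titles and list names give different conditions for 3 of the 4 pairs, so every comparison is given with both readings. Pair A is WT IP without AS by title, and WT without AS by name. Pair B is WT input without AS by title, and WT with AS by name. Pair C is WT IP with AS by title, and K512R without AS by name. Pair D is WT input with AS by title, and K512R with AS by name. The set of A and C against the set of B and D is therefore IP against input by title and no AS against AS by name. The set of A and B against the set of C and D is no AS against AS by title and WT against K512R by name. The other 8 samples, all titled K512R, have none of the 8 lists and were not analysed here. The labels do not say whether replicates were separate cultures, so p-values measure the spread between these lists, which may be technical.

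Glycolysis breaks glucose down to pyruvate in the cytosol and yields ATP and NADH. Lactate dehydrogenase then turns pyruvate into lactate and restores the NAD+ that the pathway uses up, and many tumour cells run this route at a high rate even with oxygen present. The mRNAs of these enzymes are abundant housekeeping messages in most cultured cells, and their poly(A) tails are bound by proteins such as PABPC1.

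The glycolysis mRNAs held top-scored peaks in B and D more often than in A and C. The authors' score has no stated unit and ranged from 13.02 to 3233.06, with many peaks tied at 3100, so it was used as a rank within a list. Of the glycolysis peaks, 2 of 14 in A1, 2 of 14 in A2, 2 of 16 in C1 and 4 of 14 in C2 had a score of 3100 or more. In B1 the count was 17 of 19, in B2 16 of 18, in D1 13 of 16 and in D2 15 of 17. Among all peaks of a list, the share with such a score was between 8.17% in C1 and 11.0% in D2. The shares of the 2 sets did not overlap for the glycolysis peaks (12.5% to 28.6% against 81.3% to 89.5%). For all peaks they did, at 8.17% to 10.2% in A and C and 9.22% to 11.0% in B and D. The median glycolysis peak lay at the 66.5th percentile of its list in A1, the 76.3rd in A2, the 82.2nd in C1 and the 75.9th in C2. In B1, B2, D1 and D2 it lay at the 94.8th, 95.3rd, 94.7th and 94.3rd, which are the percentiles of peaks tied at 3100. The medians of A and C lay above the middle of their own lists, though single peaks lay lower, such as LDHA region 2, LDHA region 3, LDHB region 1 and TPI1 region 1 in A1, at percentiles 29.2, 32.4, 34.3 and 4.16.

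**Figure D1:**
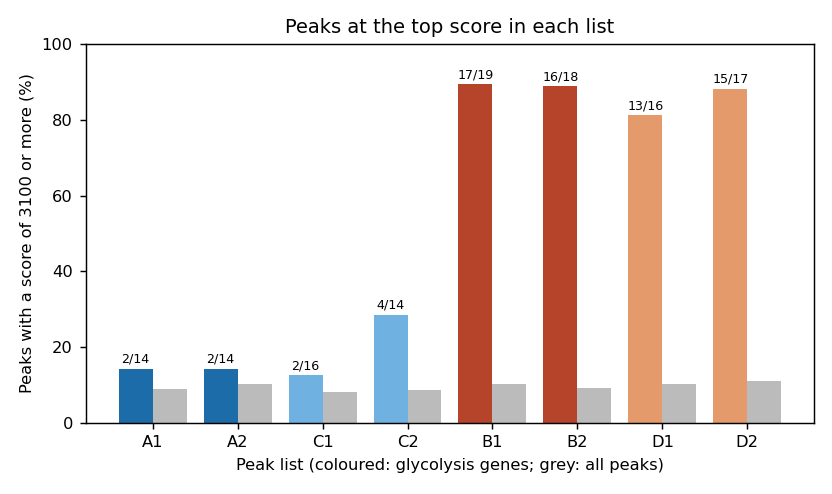
Percentage of peaks with a score of 3100 or more in each list (vertical axis), for the glycolysis genes (coloured bars, with the counts above) and for all peaks of the list (grey bars). The coloured bars lie between 12.5% and 28.6% in A and C and between 81.3% and 89.5% in B and D, while every grey bar lies between 8.17% and 11.0%.

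The genes are taken in the order of their reactions, and regions are numbered from the 5′ end of each gene. ALDOA, the aldolase that splits fructose 1,6-bisphosphate into a pair of triose phosphates, had 3 regions, and none of them was in every list. Region 2 (30075050 to 30075569, 520 bp) had a peak in A2, C2 and D2, each with a score of 3100. Region 3 (30076994 to 30077248, 255 bp) had a peak in A1, B1, B2 and C1, again each with a score of 3100. No list held both, though they lie 1424 bp apart, and D1 held no ALDOA peak at all. The replicates of A, of C and of D thus differed, and only the lists of pair B were alike in this gene. Region 1, at the 5′ end (30064488 to 30064820), had 1 peak, in D2, with a score of 18.46.

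TPI1, the isomerase that interconverts the 2 triose phosphates, had 1 region of 682 bp (6979429 to 6980110), which ends exactly at the 3′ edge of its window. It had a peak with the same ends in all 8 lists. The score was 15.75 in A1, 290.62 in A2, 1049.97 in C1 and 440.0 in C2, and 3100 in each list of B and D. In A1 this was among the weakest peaks of the list, at the 4.16th percentile. In A2, C1 and C2 it lay at percentiles 60.6, 82.8 and 69.96 of their own lists, so the replicates of A were far apart.

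GAPDH, which oxidises glyceraldehyde 3-phosphate and makes the pathway's NADH, had no peak on either strand. The nearest peaks on its strand in any list lay 296148 bp before and 185912 bp after the window. The other windows had no peak on their opposite strand either. The RefSeq gene table of GRCh38.p14 names 65 pseudogenes after GAPDH and between 2 (ALDOA) and 6 (LDHA) after each of the other genes. No source used here says how the authors treated reads that match several places, and the part of such copies in the missing GAPDH peaks was not tested. A peak list gives no level for a gene without a peak, so nothing here says how much GAPDH mRNA was present.

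ENO1, the enolase that forms phosphoenolpyruvate, had 7 regions, the most of any of the genes. Region 7 (8921059 to 8921488, 430 bp) starts at the window's 3′ edge and scored 3100 in all 8 lists. Region 6 (8923173 to 8923402, 230 bp) scored 1459.21 and 2042.71 in A, 1404.84 and 2202.21 in C, and 3100 in all lists of B and D. Region 4 (8926338 to 8926560, 223 bp) was absent from all lists of A and C and scored 3100 in all lists of B and D. Region 1, at the 5′ end (8938639 to 8939308, 670 bp, of which 157 bp lie outside the window), scored 3100 in the 4 lists of B and D and 24.75 in A2, and was absent from A1, C1 and C2. Both ends of the gene and the stretch around region 4 thus carried top-scored peaks in B and D, whereas A and C shared with them only the 3′ part at that score. The other regions varied between replicates. Region 5 (198 bp) was missing only from B1, region 2 (94 bp) from B2 and C2, and region 3 (70 bp) from B2, C2 and D2.

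PKM, the pyruvate kinase that makes pyruvate and ATP, had 4 regions. Region 1 (72523237 to 72523727, 491 bp), 437 bp from the 5′ edge, scored 1442.63 and 2857.44 in A, 2190.39 and 3100 in C, and 3100 in all lists of B and D. Region 3 (72509750 to 72509841, 92 bp) scored 1515.24 and 1421.5 in A, 2576.05 and 2853.93 in C, and 3100 in B and D. Region 2 (72511284 to 72511451, 168 bp) scored 423.96 and 509.39 in A, 1361.42 and 340.92 in C, 3100 in both lists of B, and 1357.5 and 523.67 in D. In region 2, unlike in regions 1 and 3, pair D lay within the range of C and only B was at 3100. Region 4 (72491370 to 72492097, 728 bp) starts at the 3′ edge of the window. It was absent from both lists of A and from D2, and scored 114.01 and 274.12 in C, 378.8 in D1 and 3100 in B. This 3′ region thus separated A from C, which otherwise had the same PKM regions.

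LDHA, the lactate dehydrogenase subunit that prevails in muscle and many tumours, had 4 regions, and the first took different forms. In A2, D1 and D2 its peak ran from 18415936 to 18416183 (248 bp), starting at the 5′ edge of the window, and in A1 from 18415940 to 18416183 (244 bp). In B1, B2, C1 and C2 it ran from 18416159 to 18416433 (275 bp). The upstream and the downstream form share 25 bp, and no list held both. A and D therefore had one form and B and C the other, a split that follows neither of the study's factors in either reading. When only peaks that shared at least 50% of the shorter peak were joined, 25 regions of the series were in all lists of A and D and in none of B and C. These were 0.195% of the regions found in all lists of A and D. The reverse held for 67 regions, 0.504% of those in all lists of B and C, and LDHA had 1 region in each set. This split was taken from the LDHA forms themselves, so the place of LDHA in both sets was fixed in advance. The shares describe the series and are no support for the LDHA pattern.

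Further along LDHA, region 2 (18418101 to 18418515, 415 bp) scored 51.53 and 27.54 in A, 181.18 and 162.49 in C, and 3100 in B1, B2 and D2, and was absent from D1. Region 3 (18425241 to 18425358, 118 bp) scored 60.21 in A1, 184.84 and 112.81 in C, and 3100 in all of B and D, and was absent from A2. The A and C lists thus placed these regions between percentiles 15.2 and 55.7, below the 5′ region of the same gene. Region 4, toward the 3′ end (18428664 to 18429761 in B1 and to 18429554 in B2), was found only in pair B, with scores of 54.12 and 544.77.

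LDHB, the subunit that prevails in heart, had 3 regions, all at least 100063 bp from the 5′ edge of a window that is 122517 bp long. Transcript starts within the window were not placed, so this distance does not say how far the peaks lie from an mRNA's 5′ end. Region 1 (21810402 to 21810728, 327 bp) scored 66.02 in A1, 2200.6 in A2, 602.09 and 699.92 in C, and 3100 in all of B and D. The replicates of A were far apart, at percentiles 34.3 and 87.0 of their lists. Region 2 (21799833 to 21799950, 118 bp) was absent from A, scored 139.32 and 31.5 in C, 3100 in B, and 2805.84 and 3100 in D. Region 3 (21794886 to 21795059, 174 bp) was found only in B, with scores of 471.59 and 192.21. The number of LDHB regions was thus 1 in both lists of A, 3 in both of B, and 2 in all lists of C and D.

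**Figure D2:**
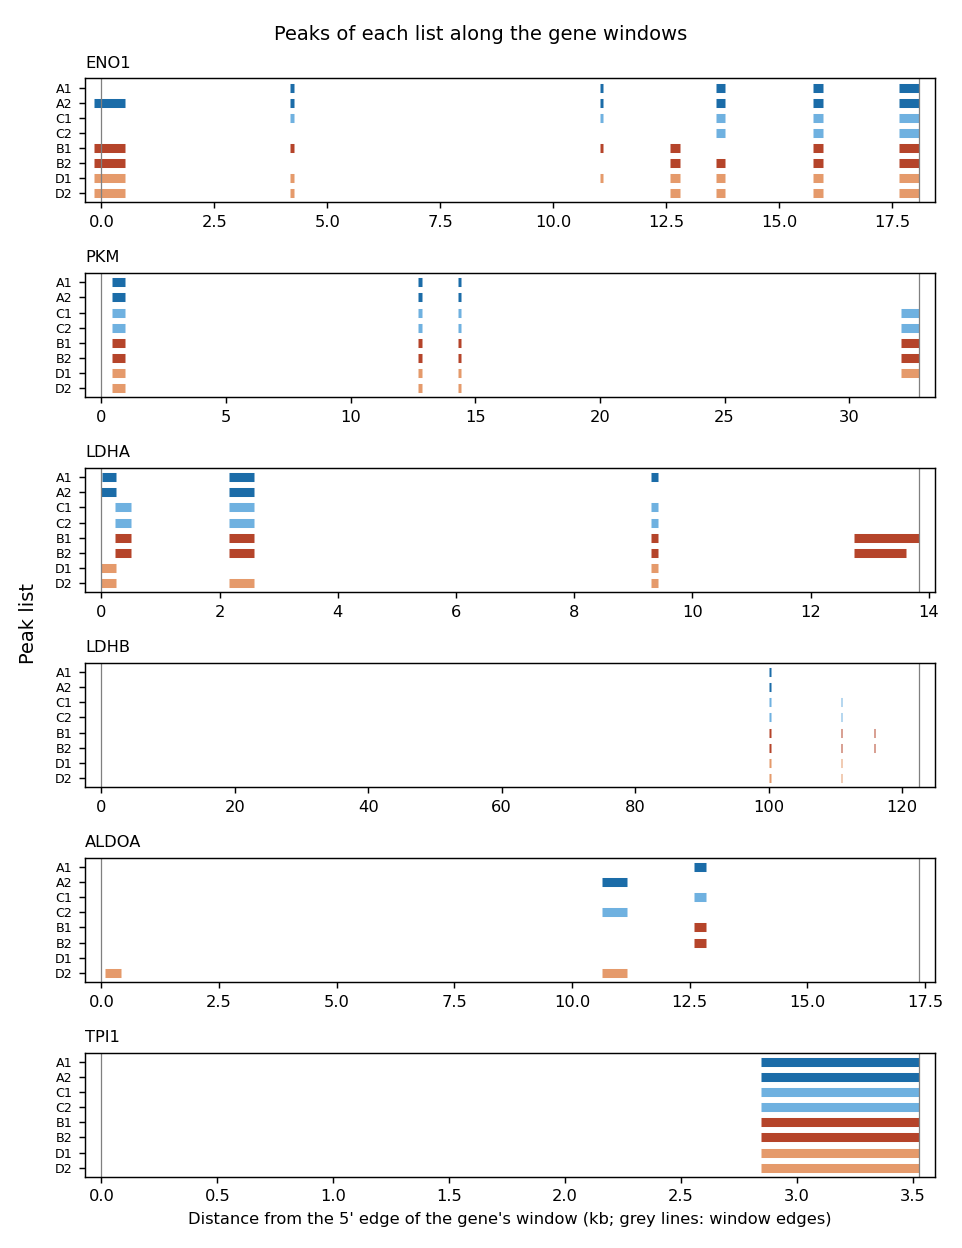
Peaks of each list (rows) along the windows of the 6 genes with peaks, as distance in kb from the 5′ edge, with pairs A and C in blue and B and D in red and orange. The 430 bp ENO1 region at the 3′ edge and the 682 bp TPI1 region are in all 8 lists, the LDHA 5′ peak takes one form in A and D and another in B and C, and no list holds both ALDOA regions 2 and 3.

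Apart from these shifts the peaks had fixed ends. In 20 of the 22 regions every list that held the region gave the same start and end, and the exceptions were LDHA regions 1 and 4. ALDOA region 1, in 1 list only, could not differ. Among regions with a peak in all 8 lists, identical ends were found in 7 of 8 glycolysis regions and in 8529 of all 10872. Fixed ends were thus common in the series, and the share over all 36802 regions was not computed. A peak also ended exactly at an edge of the gene's window in 8 lists for ENO1 and for TPI1, in 5 for PKM and in 3 for LDHA. Of the 22 regions, 8 (36.4%) had a peak in all 8 lists, beside 29.5% of all 36802 regions.

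**Figure D3:**
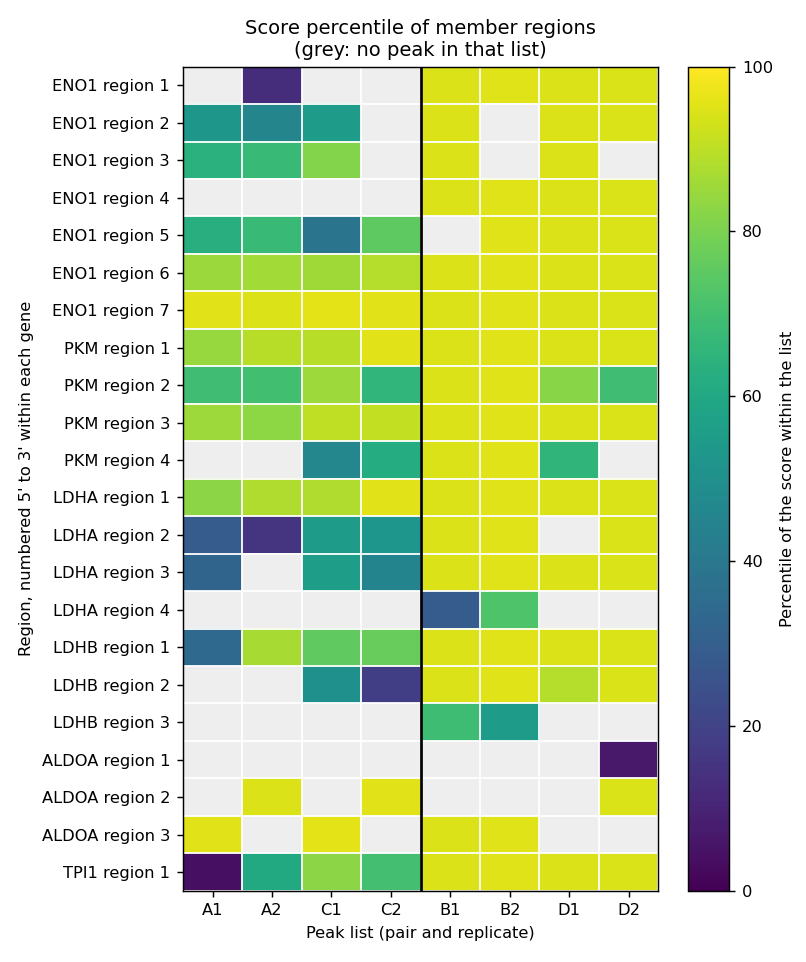
Percentile of the score within its list (colour, 0 to 100) for the 22 regions (rows, numbered from the 5′ end) in the 8 lists (columns), with grey where a list has no peak. The 4 columns on the right, B and D, hold mostly tied top scores at the 94.3rd to 95.3rd percentile, while A and C on the left range from the 4.16th to the 95.8th.

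Percentiles within lists of different length refer to different sets of peaks, so those given above compare only roughly between lists. The score was therefore also ranked among the 10872 regions that had a peak in all 8 lists, the same set in every list. This measure was chosen after the lists had been seen. The 8 glycolysis regions in that set were ENO1 6 and 7, PKM 1 to 3, LDHA 1, LDHB 1 and TPI1 1. In TPI1 the percentile was 0.593 in A1, 36.5 in A2, 67.8 in C1 and 45.2 in C2, against 91.8, 92.2, 91.7 and 90.8 in B1, B2, D1 and D2. The mean was 37.5 ± 27.9 in A and C and 91.6 ± 0.620 in B and D (SD, n = 4 lists each), a difference of 54.1 points. LDHB region 1 was at 11.0, 77.1, 56.1 and 56.0 in A1, A2, C1 and C2, which gave a mean of 50.1 ± 27.9 and a difference of 41.6 points (SD, n = 4). ENO1 region 6 was at 73.3, 76.0, 73.0 and 77.8 in the same lists (75.0 ± 2.27, SD, n = 4) and 16.6 points higher in B and D. PKM region 3 was at 74.0, 70.2, 82.3 and 81.6 (77.0 ± 5.89, SD, n = 4) and 14.6 points higher. In these 4 regions every list of B and D ranked above every list of A and C. Since all 4 were tied at the top score in B and D, their order within the tie is not known.

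The other 4 regions overlapped between the sets. PKM region 1 differed by 10.4 points and LDHA region 1 by 12.2 points, with C2 tied at the top in both. PKM region 2 differed by 24.8 points (52.3 ± 14.2 against 77.0 ± 19.4, SD, n = 4), with D at 72.7 and 51.3 against 72.5 and 39.0 in C. ENO1 region 7 was tied at the top everywhere. No glycolysis region ranked lower in every list of B and D. Over all 10872 common regions, 21.8% ranked higher in every list of B and D, and 23.5% ranked lower in every one, so 4 of 8 and 0 of 8 are read against these shares. With ties at the lowest rank the count of higher regions was 3 of 8, beside 21.5%, and with ties at the highest 6 of 8, beside 22.3%. With 1 list left out it was 4 of 8 at the lowest, without A1 (beside 23.6%) or B2 (beside 23.1%). It was 7 of 8 at the highest, without D2, beside 23.8% of the regions common to the remaining lists.

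An exact 2-sided permutation test of 4 lists against 4 gave p = 0.0286 for each of the 4 regions without overlap. This p is the smallest that 70 splits allow, and any region without overlap between the sets gets it. It therefore restates the separation by which these regions were picked and is no separate support. After Benjamini-Hochberg adjustment over the 10872 regions it was 0.0630, and none of the 10872 regions passed 0.05, while 4930 had an unadjusted p under that level. Within the replicate block each of these 4 regions had an exact permutation p of 0.0556, the smallest the block allows, and 0.108 after adjustment over the same regions. PKM region 2, in which the sets overlapped, had the same values under the block. Without the block, the other 4 had adjusted p between 0.111 (PKM 1, PKM 2 and LDHA 1) and 0.791 (ENO1 7, exact permutation test). Were each pair taken as 1 unit, an exact test could not reach 0.05. By the second factor, A and B against C and D, no glycolysis region ranked higher or lower in every list, beside 0.699% and 1.09% of the common regions, and each of the 8 had an adjusted p of 1.0 in the same permutation test.

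The tie at 3100 underlies these ranks, so counts at that score restate them and are no separate support. In 7 of the 8 common regions all lists of B and D had a score of 3100 or more, beside 12.6% of all common regions. All lists of A and C did so in 1 of 8, beside 13.5%. In 4 of 8 (ENO1 6, PKM 3, LDHB 1 and TPI1) every list of B and D and no list of A and C was at that score, beside 2.90% of common regions, and the reverse held for 0 of 8 beside 2.95%. The share of common regions at that score was 15.5% to 17.9% in A and C and 15.0% to 18.0% in B and D, so the ranges of the sets overlapped.

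**Figure D4:**
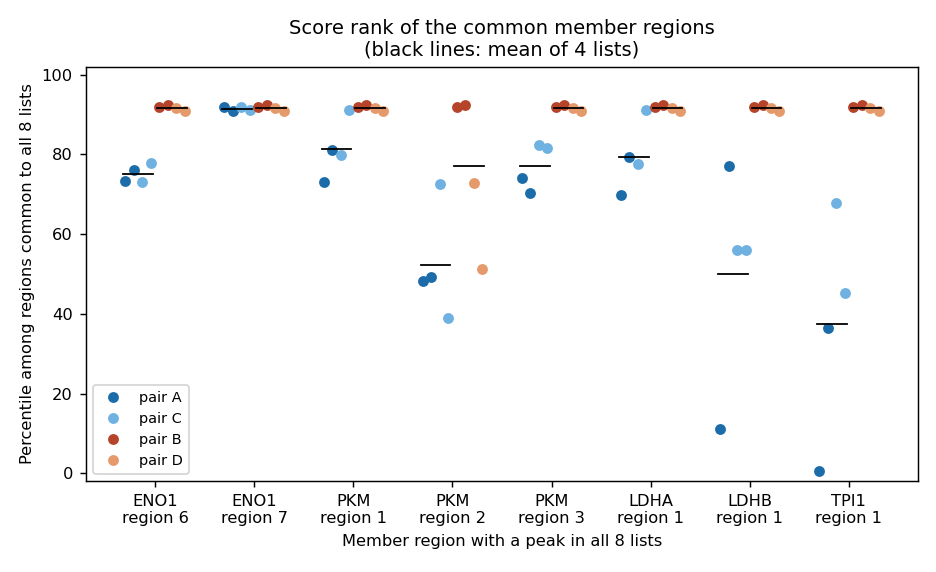
Percentile of the score among the 10872 regions common to all lists (vertical axis) for the 8 glycolysis regions in that set, with 1 point per list and black lines for the means of 4 lists. In B and D all points except those of D in PKM region 2 lie at 90.8 to 92.2, and in A and C the points spread from 0.593 in TPI1 to 91.9 in ENO1 region 7.

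Presence and absence of peaks were then compared between pairs. A region was called lost when both lists of the starting pair and no list of the other had a peak, and gained in the reverse case. An exact test of 2 lists against 2 cannot pass 0.05, so these are counts with no p. In B against A (input against IP by title, AS against no AS in WT by name), 5 of the 17 glycolysis regions found in both lists of B were gained. They were ENO1 4, PKM 4, LDHA 4, LDHB 2 and LDHB 3, and over the whole series 17.1% of such regions were gained. None of the 12 found in both lists of A was lost, beside 19.1%. In D against C (input against IP with AS by title, AS against no AS in K512R by name), 2 of 14 regions were gained, ENO1 1 and ENO1 4, beside 13.3%. None of 13 was lost, beside 25.3%. The 2 of 14 gains in D against C are close to the share over the whole series. With 1 list left out, losses in B against A were 1 without A1 or B2 and 2 without B1, and in D against C 1 without C2, D1 or D2. The shares over all regions with a list left out were not computed, and those above do not apply to these counts. In both comparisons, each gene with a peak other than ALDOA kept at least 1 region in all 4 lists.

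In C against A (AS against no AS in IP by title, K512R against WT without AS by name), 2 of 13 regions were gained, PKM 4 and LDHB 2, beside 8.75%, and 0 of 12 were lost, beside 3.23%. In D against B (AS against no AS in input by title, K512R against WT with AS by name), 3 of 17 regions were lost, LDHA 4, LDHB 3 and ALDOA 3, beside 7.86%, and 0 of 14 were gained, beside 6.30%. With 1 list left out, losses in C against A were 1 without A1 and 2 without C1, and gains in D against B 1 without B1 or B2 and 2 without D1. Here too, no share over all regions was computed for any count of presence with a list left out. PKM region 4 and LDHB region 2 were thus in both lists of B and of C and in neither of A. LDHA 4 and LDHB 3 were in pair B alone. Over all 8 lists, ENO1 region 4 was the only glycolysis region in every list of B and D and in none of A and C (1 of 12, beside 7.68%, and 2 regions without A2), and 0 of 10 had the reverse pattern, beside 11.4%. The 1 of 12 is close to the share over the whole series. By the second factor the counts were 0 of 9 only in A and B, beside 0.141%, and 0 of 11 only in C and D, beside 0.181%.

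The length that peaks covered in a window summed up presence per gene. In ENO1 it was 1022 and 1535 bp in A, 1022 and 858 bp in C, 1560 and 1594 bp in B, and 1758 and 1688 bp in D. Every list of B and D covered more than every list of A and C, with A2 just below B1. The share of other gene windows separated in this way was not computed. The mean was 1109 ± 294 bp over A and C and 1650 ± 90.1 bp over B and D (SD, n = 4 each), a difference of 541 bp with p = 0.0286, not adjusted, in an exact 2-sided permutation test, 1 of 12 such tests over 6 genes and 2 factors. With permutation within replicate numbers (a replicate block) p was 0.0556, the smallest that such a block allows, so the call was lost. It was also lost without B1, B2, D1 or D2 (p = 0.0571 in the exact permutation test each time). With only peaks wholly inside the window, which leaves out region 1, the difference was 156 bp.

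In the other genes the sets overlapped or were equal. LDHA covered 777 and 663 bp in A, 808 bp in both lists of C, 1906 and 1699 bp in B, and 366 and 781 bp in D, so that pair B stood apart through its 3′ region. LDHB covered 327 bp in A, 619 bp in B and 445 bp in C and D, with no difference between replicates. PKM covered 751 bp in A and D2 and 1479 bp in the other 5 lists. ALDOA covered 255 or 520 bp in A, B and C, 0 bp in D1 and 853 bp in D2, the widest spread between replicates. TPI1 covered 682 bp in all 8 lists. The exact permutation p of these 5 genes between A and C on one side and B and D on the other ranged from 0.171 for LDHB to 1.0, and for all 6 genes by the second factor from 0.286 for LDHA to 1.0.

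The same test on the covered length of single regions over all 36802 gave p = 0.0286 for ENO1 region 4 alone among the 22 (exact 2-sided permutation, n = 4 lists each), and 0.308 after adjustment over all regions. Region 4 had the same peak in every list of B and D and none in A and C, so this p restates its presence. At an unadjusted p under 0.05, 9.28% of all regions differed between A and C and B and D, and 0.386% between A and B and C and D. None passed after adjustment.

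**Figure D5:**
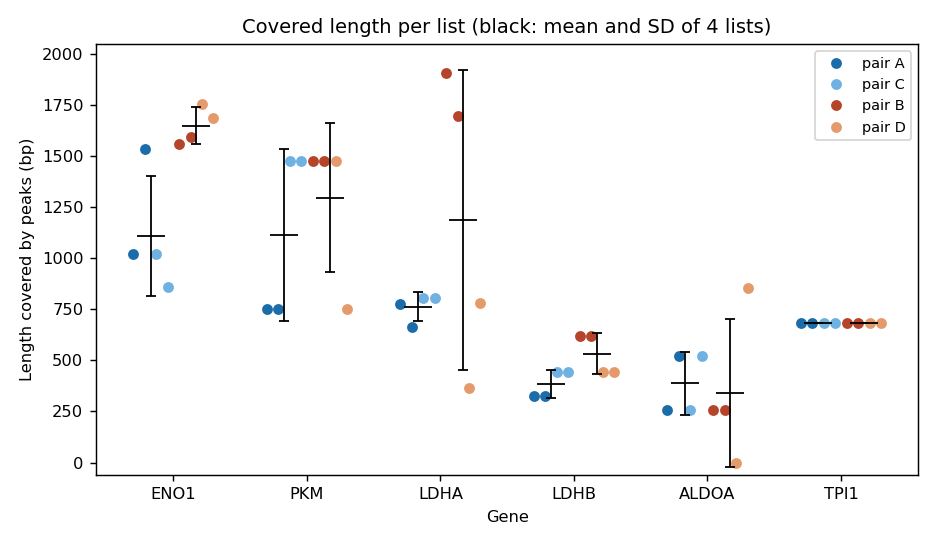
Length covered by peaks in each window (vertical axis, bp), with 1 point per list and black marks for the mean and SD of the 4 lists of A and C (left) and of B and D (right). ENO1 is the only gene of those shown in which the sets do not overlap (858 to 1535 bp against 1560 to 1758 bp). A2 lies just below B1 there, and the share of other gene windows separated in this way was not computed. TPI1 is at 682 bp throughout, and pair B stands apart in LDHA and LDHB.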

How the data were processed

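Per the labels' protocols, anti-Myc immunoprecipitation and rRNA removal preceded library making. The submitters' processing notes name cutadapt 1.9.3, HISAT2 2.0.4 and hg19. The authors deposited 1 list of peaks per sample, with start and end positions in bp and a score whose unit, threshold and control library no source used here gives. Peak names begin with MACS. Lists held 19953 to 25111 peaks. Read depth is unknown, and the number of lists limits the precision.

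Members and lists were chosen with earlier results of these data known. All of each list was used. Peaks sharing at least 1 bp on a strand were joined. Regions are named where they were changed in a comparison, best scored or widest, and the rest for completeness. Tests were exact permutations, adjusted by Benjamini-Hochberg over all regions and checked on simulated data. Replicate numbers were taken to pair lists, since differences between replicates 1 and 2 in rank over 10872 regions correlated at 0.116 to 0.174 between every 2 of the 4 pairs (a correlation across regions, which are not independent). Alternatives were list length, score, overlap, window edges, ties, each list left out and the replicate block. The 17 other glycolysis genes planned, transcript parts and base composition were not analysed here, since the gene table used is for GRCh38.p14. Computation used Python 3.11.15 with pandas 2.3.3 and numpy 2.4.6, and plots matplotlib 3.10.9.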

Additional observations from a re-analysis of the deposited data

Results flagged for a closer look

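In several values the step from A to C and the step from B to D had opposite signs in every list. Looked at were the covered lengths of the 6 genes with peaks, the LDHA 5′ peak, and the ranks of the 8 common glycolysis regions. The share of all regions of the series with such opposite signs was not computed. The difference between the steps was not tested. By title the steps are AS in IP and AS in input, and by name they are K512R against WT without and with AS. The start of the LDHA 5′ peak lay 221 bp further along in C than in A and 223 bp less far in D than in B (means of the list differences, D minus B −223 bp). Its end moved by 250 bp and −250 bp, and its width by 29.0 bp and −27.0 bp. Start, end and width describe the same change of form. The covered length of LDHA differed by 88.0 bp for C minus A and −1229 bp for D minus B, and that of LDHB by 118 bp and −174 bp. The rank among common regions of TPI1 region 1 was 38.0 points higher in C than in A and differed by −0.752 points for D minus B, and that of PKM region 3 by 9.83 and −0.752 points. All lists of B and D are tied at the top score in these last 2 regions, so −0.752 is the change in the rank of the tie. Any region tied there in all lists of B and D has this negative sign.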

How the results depend on the processing

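Counts of member regions kept their size, within 1.5 times, under the replicate block, which requires presence within each same-numbered pair and is the same rule by construction. Gains in C against A were 1 with lists limited to the shortest length or to the better 50% of scores. With the better 50%, 2 regions were only in B and D. With joining at 50% of the shorter peak, the LDHA forms counted apart, which gave 1 loss in B against A, C against A and D against C and 1 gain in D against B. With only peaks wholly inside the windows, 1 region was gained in D against C, since ENO1 region 1 crosses the edge. With each list left out in turn, gains ranged from 5 to 7 in B against A, 2 to 3 in C against A, 2 to 3 in D against C and 0 to 2 in D against B. Losses ranged from 0 to 2, 0 to 2, 0 to 1 and 3 to 4, regions only in B and D from 1 to 2, and the other counts by factor stayed at 0. Shares over all regions were not computed for these alternative counts of presence. The ENO1 covered length differed by 541 bp (replicate block p = 0.0556, exact permutation) by 457 to 683 bp with a list left out, and by 156 bp with only peaks wholly inside the window. Under the block no region of the series could pass 0.05 unadjusted, so both counts were 0. Of the common member regions, 3 ranked higher in every list of B and D with ties at the lowest rank, 6 with ties at the highest, and 4 to 7 with a list left out, the 7 without D2. The count of lower ones was 0 under each of these. The scores are tied at 3100 and read depth is unknown, which limits every rank at the top.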
